A study of Mus musculus with 36 samples.

Results

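The comparison described here is that of the kidneys of newborn mice that had lost Pkd2 in the collecting duct system with those of control mice at postnatal day 1 (P1), measured as microRNA (miRNA) read counts. Its 6 libraries came from a series of 36. The KO group (Pkd2f/f:HoxB7-Cre, 3 libraries) carried 2 floxed Pkd2 alleles and the HoxB7-Cre transgene. The WT group (Pkd2f/f, 3 libraries) comprised age-matched littermates with the same floxed alleles and no Cre, so both groups carried loxP sites on a C57BL/6 background and the WT animals lacked the transgene. Other groups of the series were used only for contrast. They were Pkd2 KO and WT kidneys at P3 and P7 and Pkd1 KO (Pkd1f/f:HoxB7-Cre) and WT (Pkd1f/f) kidneys at P1. Pkd1 WT kidneys at P7 were set against those at P1 for an age axis. The remaining Pkd1 groups, KO and WT at P3 and KO at P7, entered only the fits that took in all Pkd1 libraries. Of 1915 mature miRNAs in the table, 746 had at least 10 counts in at least 3 of the 18 Pkd2-line libraries and were kept. Of these, 707 reached 10 counts in 3 P1 libraries, and the other 39 were kept through their counts at P3 or P7.

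Pkd2 encodes polycystin-2, a cation channel of the primary cilium, and its loss causes autosomal dominant polycystic kidney disease. The HoxB7 promoter drives Cre in the ureteric bud and in the collecting ducts that arise from it, whereas the nephron tubules develop from a separate, mesenchymal lineage. miRNAs are short RNAs that repress messenger RNAs by pairing through the seed, bases 2 to 8 counted from the 5′ end, and one hairpin can release a miRNA from either of its arms (5p and 3p). RNA was taken from whole kidney, in which recombined cells are a fraction of the tissue, and in such bulk samples fewer cells of a type and less RNA per cell cannot be told apart. The labels give neither sex, nor batch, nor whether a library was 1 animal, so that p-values measure only the spread between these libraries. As the assay does not measure Pkd2 messenger RNA, the deletion could not be checked against the labels.

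The mature sequences of the main miRNAs are given with the seed in capitals, as given by RefSeq (GRCm38.p6), where 622 of the 746 miRNAs were matched by name. The first set holds miRNAs with a higher estimated level in KO, none at an adjusted p under 0.05 and miR-295-3p with overlapping groups. miR-294-3p and miR-295-3p, from a cluster known from embryonic stem cells, share a seed.
miR-374b-5p: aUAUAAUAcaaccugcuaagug
miR-130a-5p: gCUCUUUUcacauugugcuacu
miR-501-5p: aAUCCUUUgucccugggugaaa
miR-193a-3p: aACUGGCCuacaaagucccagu
miR-31-3p: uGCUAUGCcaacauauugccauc
miR-294-3p: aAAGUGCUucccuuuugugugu
miR-295-3p: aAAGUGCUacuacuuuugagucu
The next set holds miRNAs with a lower estimated level in KO, none at an adjusted p under 0.05 and some with overlapping groups. Among them are 3 tubule miRNAs with different seeds and the 4 members of the miR-181 family, which share theirs.
miR-192-5p: cUGACCUAugaauugacagcc
miR-194-5p: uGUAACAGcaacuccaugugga
miR-802-5p: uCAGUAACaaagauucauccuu
miR-653-5p: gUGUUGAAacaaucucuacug
miR-181a-5p: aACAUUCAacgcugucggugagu
miR-181b-5p: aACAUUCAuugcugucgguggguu
miR-181c-5p: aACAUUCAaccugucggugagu
miR-181d-5p: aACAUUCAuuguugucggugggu
The last set holds the miRNAs whose KO effect differed between P1 and P7.
miR-3084-5p: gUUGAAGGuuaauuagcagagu
miR-540-3p: aGGUCAGAggucgauccugg
miR-299a-3p: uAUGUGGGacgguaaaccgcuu
miR-31-5p: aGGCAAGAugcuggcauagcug

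The 6 libraries held 17511509 to 27519491 miRNA reads, and 1100 to 1199 miRNAs had a read. Replicates correlated at Pearson's r of 0.991 to 0.997 across miRNAs, which are not independent of each other. A count of 3 reads, the floor used here, stood for 0.0828 to 0.132 counts per 1000000 reads (CPM, on library sizes scaled by trimmed mean of M values, TMM) and covers counting error only. miR-10a-5p and miR-10b-5p, encoded in the Hox clusters, held 44.8% ± 7.08 of the reads in KO (SD, n = 3) and 46.5% ± 2.83 in WT (n = 3). The difference of -1.74 percentage points had an exact two-sided permutation p of 0.8, where 0.1 is the smallest possible.

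Single libraries of either genotype stood apart in the markers of other tissues. The summed level of 6 muscle miRNAs was 40.6, 29.0 and 226 CPM in the KO libraries 1 to 3 and 58.2, 22.6 and 56.3 CPM in the WT libraries 1 to 3. KO library 3 was thus the one with high muscle miRNAs. The 2 arms of miR-122, the main liver miRNA, summed to 56.9, 26.5 and 52.8 CPM in KO and 13.9, 11.9 and 360.0 CPM in WT, with WT library 3 standing above the rest. The 5 erythroid miRNAs reached 8855 CPM in KO library 2 and 3640 to 6137 CPM in the other 5 libraries. In the miR-200 family, which marks the epithelium of the ureteric bud and collecting duct, the sums overlapped (5958, 5050.3 and 5071 CPM in KO, 5508, 5583 and 4914 CPM in WT), so that the labelled tissue carried its markers in every library. The part of muscle, liver or blood RNA in the results that follow was not tested beyond leaving out these libraries.

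**Figure D1:**
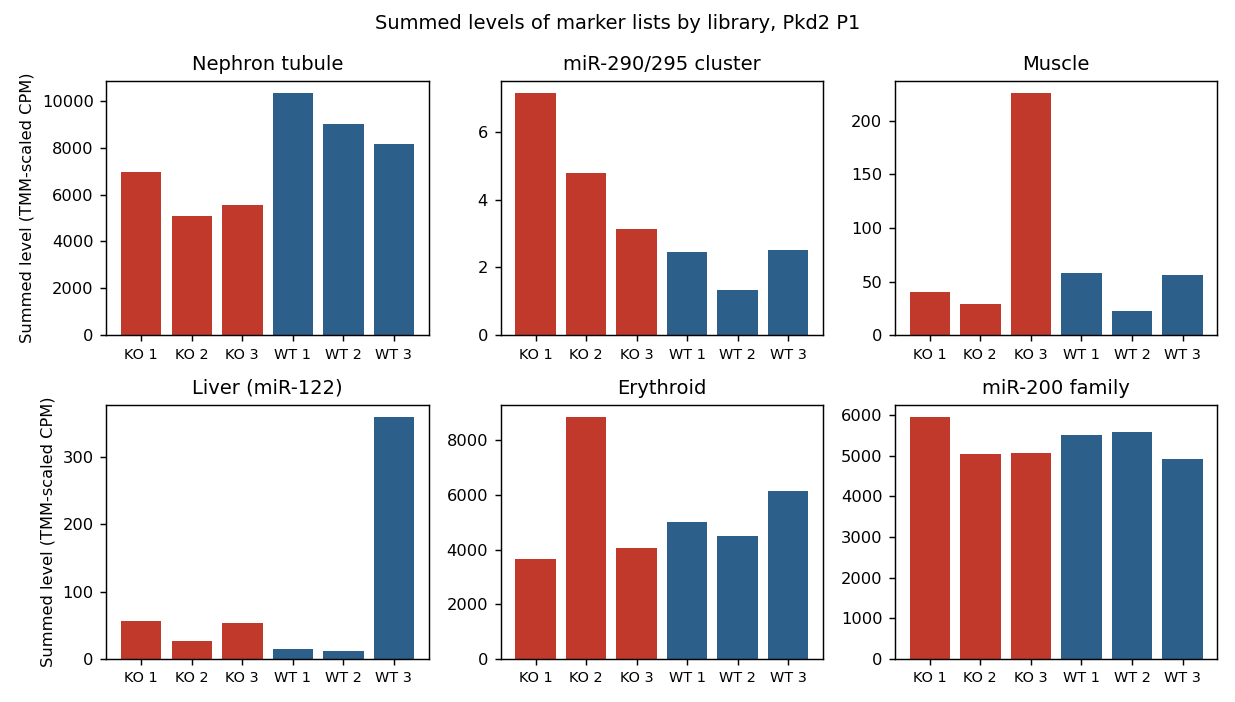
Bars give the summed level (TMM-scaled CPM, axis from 0) of the kept members of 6 marker lists in each of the 3 KO (red) and 3 WT (blue) Pkd2 libraries at P1. Nephron tubule miRNAs were lower in every KO library than in any WT library, muscle miRNAs stood out in KO library 3 (226 CPM) and miR-122 in WT library 3 (360 CPM).

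No miRNA passed an adjusted p of 0.05 between KO and WT at P1 (0 of 746, 0%), by edgeR's quasi-likelihood test with Benjamini-Hochberg adjustment, and the smallest adjusted p was 0.656. DESeq2, limma-voom and edgeR's likelihood ratio test also called 0. At an unadjusted p under 0.05 there were 41 miRNAs (5.5% of those tested, where 37.3 are expected at 5% if no miRNA differed), of which 27 were higher (3.62%) and 14 lower (1.88%) in KO. A 2-fold difference at that p was reached by 10 miRNAs (1.34%), 9 higher (1.21%) and 1 lower (0.134%). The 3 KO and 3 WT libraries did not overlap for 101 miRNAs (13.5%), 50 higher (6.7%) and 51 lower (6.84%). The unadjusted count therefore lay near its background, and the miRNAs below are given as measured differences, each short of the adjusted threshold. The median log2 fold change over the 746 miRNAs was 0.03, and 662 of them (88.7%) lay within 1.5-fold. Log2 fold changes had a standard error (SE) of 0.31 at the median, 0.23 for the 239 miRNAs with a mean of at least 1000 counts and 0.42 for those under 100. Below, a log2 fold change of KO over WT is given with its SE.

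The count of 41 depended on single libraries. It was 19 without KO library 2, 25 without KO library 3, 17 without WT library 1 and 25 without WT library 2, against 59 without KO library 1 and 46 without WT library 3. Without KO library 3 and WT library 3 together it was 26. The count of 10 at 2-fold became 16 without KO library 1, 19 without WT library 3 and 5 without WT library 2. Scaling by library totals alone raised the median of all miRNAs from 0.03 to 0.24 and gave 19 higher and 0 lower, with 93 higher and 14 lower among those without overlap. With scaling factors computed without miR-10a-5p and miR-10b-5p the count was 24 higher and 20 lower, and with DESeq2 it was 27 higher and 23 lower.

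**Figure D2:**
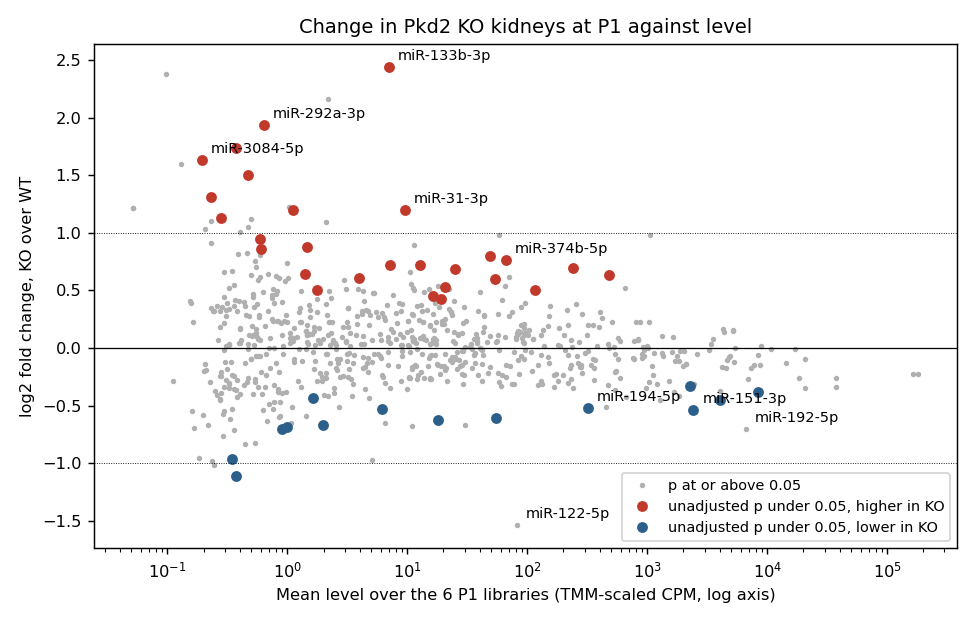
Each point is 1 of the 746 miRNAs, with its mean level over the 6 P1 libraries (TMM-scaled CPM, log axis) and its log2 fold change of KO over WT. Points at an unadjusted p under 0.05 are red (27, higher in KO) or blue (14, lower), and dotted lines mark 2-fold. Points past 2-fold lie mostly at low levels.

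Among miRNAs of moderate level, miR-374b-5p had the smallest p of those higher in KO with at least 10 counts. It is processed from an intron of Ftx, a long non-coding RNA of the X-inactivation centre (hairpin at chrX:103573060-103573154, minus strand, GRCm38). Its level was 64.0, 107 and 78.6 CPM in KO and 43.9, 50.4 and 52.4 CPM in WT. All 3 KO libraries lay above all 3 WT libraries, library 2 highest, and the log2 fold change was 0.77 ± 0.20 (SE), or 1.70-fold (unadjusted p 0.00176). Under the 18 alternatives its log2 fold change ran from 0.54 to 0.96 and its unadjusted p stayed at or under 0.017, with an adjusted p no lower than 0.227.

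miR-193a-3p was the most abundant of the higher miRNAs that had both an unadjusted p under 0.05 and no overlap. It lies outside annotated genes (chr11:79711969-79712034, plus strand). KO libraries held 275, 211 and 398 CPM and WT libraries 168, 191 and 187 CPM. KO library 3 was well above the others, and the log2 fold change of 0.69 ± 0.29 fell to 0.42 without it. miR-26a-2-3p, whose hairpin lies within Ctdsp2, had 14.7, 21.9 and 20.3 CPM in KO and 14.2, 13.4 and 14.01 CPM in WT (0.45 ± 0.20), a separation of its lowest KO library from its highest WT library that was narrow.

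miR-130a-5p, the minor arm of an intergenic hairpin (chr2:84741115-84741178, minus strand), was at 12.1, 16.9 and 18.8 CPM in KO and 7.63, 11.2 and 10.1 CPM in WT. The groups did not overlap, and the log2 fold change was 0.72 ± 0.20 (unadjusted p 0.00271). Its partner arm miR-130a-3p, which is far more abundant, had a log2 fold change of 0.17 ± 0.17 with overlapping groups. The same held for miR-23b-5p, with 0.88 ± 0.30 against 0.10 ± 0.23 for miR-23b-3p. miR-218-1-3p, from an intron of the axon guidance gene Slit2, had 0.61 ± 0.21 against 0.06 ± 0.22 for miR-218-5p. For miR-429-5p, the minor arm of a miR-200 family hairpin in the Ttll10 locus, KO was at 0.985, 1.10 and 2.59 CPM and WT at 0.531, 0.928 and 0.584 CPM. Library 3 stood out among its KO values, and the log2 fold change of 1.20 ± 0.37 dropped to 0.60 without that library, while the major arm miR-429-3p had 0.07 ± 0.19.

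miR-31-3p was the best counted of the miRNAs at 2-fold or more whose groups did not overlap. miR-31 is a miRNA of stratified and injured epithelia, and its hairpin overlaps an exon of the long non-coding RNA AL805899.1 (chr4:88910557-88910662, minus strand). KO libraries held 10.2, 16.5 and 13.4 CPM and WT libraries 5.67, 4.70 and 7.01 CPM. The lowest KO library exceeded the highest WT library, and the log2 fold change was 1.20 ± 0.41, or 2.30-fold (unadjusted p 0.00929). The more abundant arm miR-31-5p had 104, 76.1 and 68.2 CPM in KO and 67.9, 54.6 and 77.1 CPM in WT, with groups that overlapped (0.31 ± 0.30). The epithelial miRNA miR-205-5p, of the same list, ranged from 166 to 538 CPM with overlapping groups (-0.10 ± 0.67).

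Most other miRNAs at 2-fold or more were scarce. Of the 10, only miR-31-3p and miR-133b-3p had a mean of at least 50 counts. miR-3084-5p, whose hairpins include one in an intron of Cbwd1 that overlaps an annotated small nucleolar RNA, had 26 reads in the 3 KO libraries and 9 in the 3 WT libraries. Scaled for library size the ratio was 3.14, with a 95% exact counting interval of 1.43 to 7.62, and each WT library had 3 reads. miR-452-3p, from an intron of Gabre, was at 0.308, 0.263 and 0.414 CPM in KO and 0.199, 0.0898 and 0.111 CPM in WT. miR-3473b had 0.554, 0.921 and 0.634 CPM in KO and 0.299, 0.210 and 0.222 CPM in WT. miR-547-3p was at 0.523, 0.439 and 0.193 CPM in KO and 0.199, 0.150 and 0.167 CPM in WT, with overlapping groups. These 3 lay less than 1 CPM above the floor in every library. miR-5121, at a log2 fold change of 0.65 ± 0.26, is annotated where the small nucleolar RNA Snord33 lies in Rpl13a, so its reads may not be separable from that RNA.

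miR-151-3p was the most abundant of the lower miRNAs that had both an unadjusted p under 0.05 and no overlap. Its hairpin lies in an intron of Ptk2, which encodes focal adhesion kinase (chr15:73254815-73254882, minus strand). Its level was 2294, 1836 and 1795 CPM in KO and 2782, 3187 and 2645 CPM in WT. The highest KO library was below the lowest WT library, and WT was 1.45-fold above KO (log2 fold change -0.54 ± 0.18, unadjusted p 0.00853). The other arm, miR-151-5p, had 0.01 ± 0.28 with overlapping groups.

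miR-653-5p, from an intron of the calcitonin receptor gene Calcr, was at 19.0, 11.1 and 12.5 CPM in KO and 23.8, 20.7 and 21.3 CPM in WT (-0.62 ± 0.25). miR-128-1-5p, from R3hdm1, was at 6.25, 4.04 and 4.88 CPM in KO and 6.67, 8.14 and 7.15 CPM in WT (-0.53 ± 0.25). Both had every KO library below every WT library. The others of this kind were at low levels, among them miR-139-3p (-0.44 ± 0.20), miR-1933-3p (-0.67 ± 0.31), miR-1191b-5p (-0.68 ± 0.27), miR-1193-5p (-0.96 ± 0.45) and miR-5709-5p (-1.11 ± 0.42). miR-5709-5p, from an intron of Ptprm, was the 1 miRNA lower by 2-fold, at 0.0923, 0.176 and 0.414 CPM in KO and 0.465, 0.569 and 0.5004 CPM in WT. None of the lower miRNAs kept an unadjusted p under 0.05 when counts were scaled by library totals alone.

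**Figure D3:**
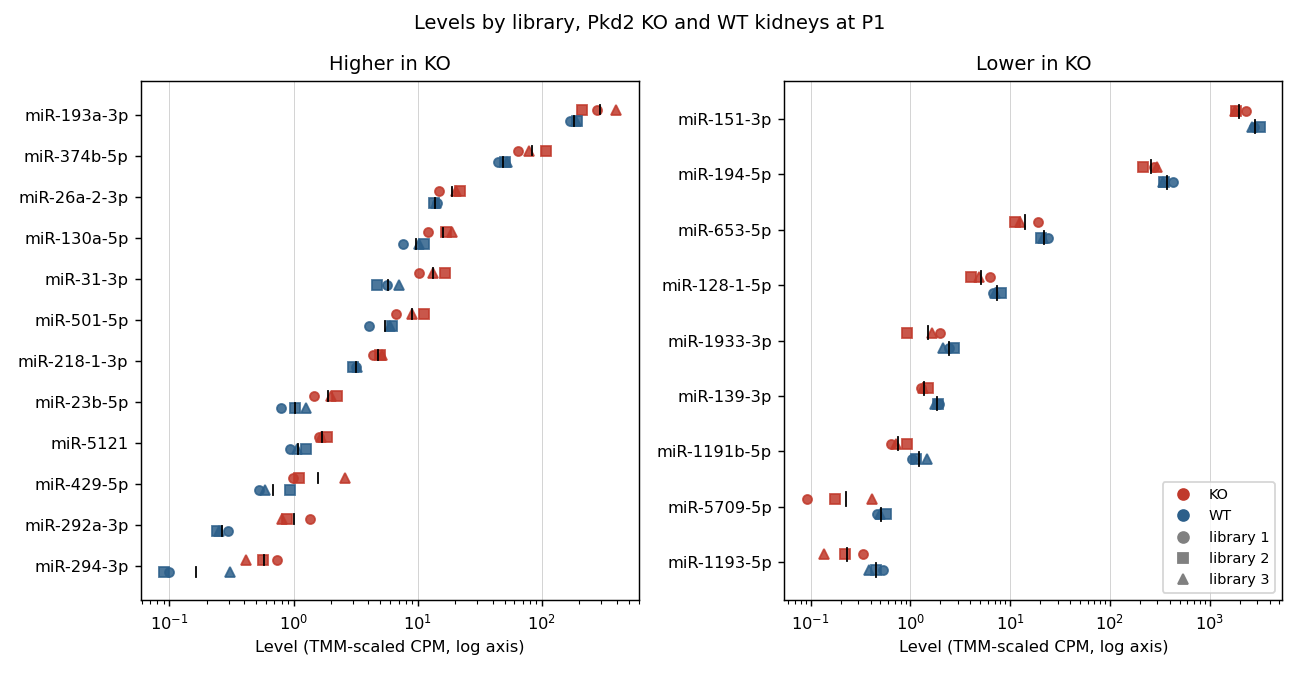
Points give the level of each library (TMM-scaled CPM, log axis; KO red, WT blue; circle, square and triangle for libraries 1, 2 and 3) for the named miRNAs with an unadjusted p under 0.05, at least 10 counts on average and no overlap, 12 higher in KO on the left and 9 lower on the right. Black ticks are group means. Gaps between the groups are narrow for several, among them miR-26a-2-3p, miR-429-5p and miR-128-1-5p. The gap is wide for miR-292a-3p, which passed the filter through KO libraries alone.

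The nephron tubule list held 5 miRNAs, and 4 of them were at lower levels in KO at P1. miR-192-5p comes from 1 locus, which also holds a miR-194 hairpin, and miR-194-5p comes from 2 loci. Both are abundant in kidney and gut, miR-802-5p is found in kidney and liver, and miR-204-5p is a tubule miRNA of the kidney. miR-192-5p was at 6170.1, 4265 and 4660.1 CPM in KO and 9301, 8015 and 7282 CPM in WT. All KO libraries lay below all WT libraries, with WT 1.63-fold above KO (log2 fold change -0.70 ± 0.34, unadjusted p 0.0555). miR-194-5p was at 276, 213 and 296 CPM in KO and 434, 353 and 340.0 CPM in WT, again without overlap (-0.52 ± 0.21, unadjusted p 0.0244). Per read of the library total the miR-194-5p groups overlapped. miR-802-5p, named after its values were seen, had 49.3, 30.8 and 50.9 CPM in KO and 85.9, 68.3 and 45.4 CPM in WT, with 1 WT library inside the KO range (-0.61 ± 0.27, unadjusted p 0.0395). miR-204-5p overlapped between the groups, at 473, 569 and 544 CPM in KO and 507, 584 and 484 CPM in WT (0.01 ± 0.21). miR-215-5p, the other lower member, had a log2 fold change of -0.65 (unadjusted p 0.518 by the quasi-likelihood test).

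The list had a median log2 fold change of -0.61, beside 0.03 over all miRNAs. At an unadjusted p under 0.05, 2 of 5 members were lower and 0 higher, beside 1.88% and 3.62% of all miRNAs. Lower levels without overlap, as in miR-192-5p and miR-194-5p, were found for 6.84% of all miRNAs. The summed level of the list was 6981, 5079 and 5552 CPM in KO and 10332, 9024 and 8169 CPM in WT. The sums did not overlap, and miR-192-5p made up most of them. Per 1000000 reads of the library total, with no scaling factor, they were 9197, 6610 and 9799 in KO and 11902, 12033 and 10677 in WT, which still did not overlap. The median stayed between -0.70 and -0.36 under the 18 alternatives, nearest to 0 with library totals alone. The count of 2 became 0 with library totals, without KO library 2 (median -0.40) and without WT library 1 (median -0.41), 1 with the replicate block or without WT library 2, and 4 without KO library 1.

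At P7 the Pkd2 comparison called 4 of the 5 tubule miRNAs lower in KO at an adjusted p under 0.05, where 94 of 746 miRNAs (12.6%) were called, 67 of them higher (8.98%) and 27 lower (3.62%). The P7 log2 fold changes were -1.13 for miR-192-5p, -0.95 for miR-194-5p, -0.93 for miR-802-5p and -0.92 for miR-204-5p. At P3 the list median was -0.19, and at P1 in the Pkd1 line it was 0.51, the opposite sign. For miR-192-5p the Pkd1 libraries at P1 held 7266, 7682 and 7731 CPM in KO and 4781, 4483 and 6662 CPM in WT, every KO library above every WT library, as for 11.6% of the miRNAs tested there. The KO effect of Pkd2 minus that of Pkd1 on miR-192-5p was -1.22 on the log2 scale (unadjusted p 0.0196, adjusted p 0.661), which did not pass.

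**Figure D4:**
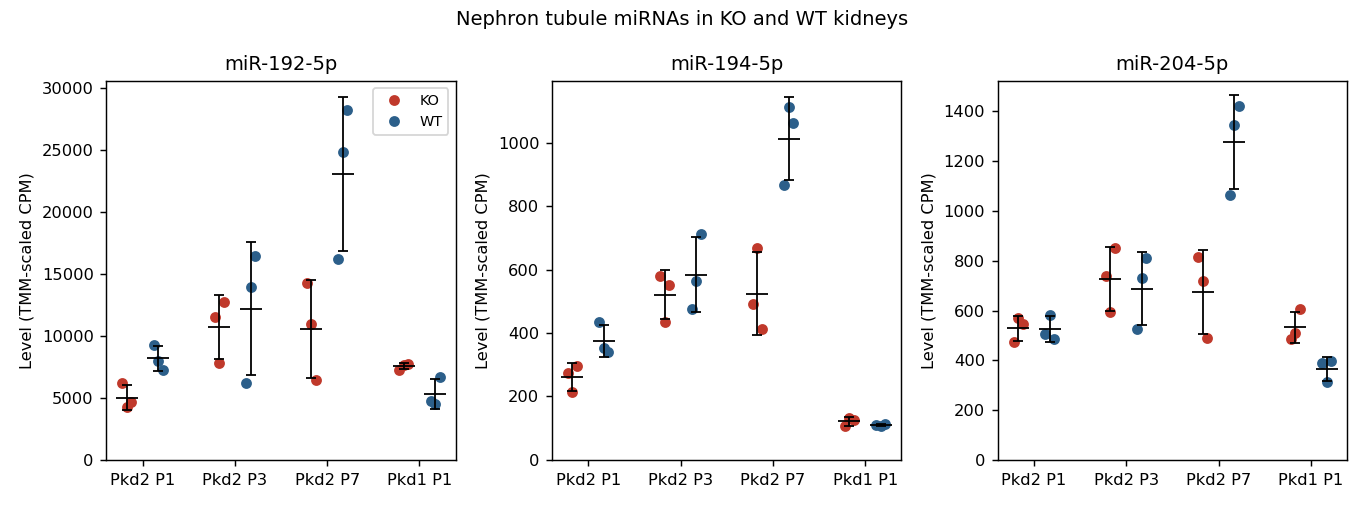
Points give the level (TMM-scaled CPM, axis from 0) of 3 nephron tubule miRNAs in each KO (red) and WT (blue) library of the Pkd2 line at P1, P3 and P7 and of the Pkd1 line at P1, with mean and SD (n = 3 per group). The 2 lines were scaled separately. At P1 miR-192-5p and miR-194-5p were lower in every Pkd2 KO library than in any WT library, and miR-204-5p overlapped.

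The miR-290 cluster, a set of miRNAs characteristic of pluripotent cells, was scarce in these kidneys, and only 4 of its 16 listed miRNAs were kept. Of these miR-292a-3p passed the filter through KO libraries alone, since it reached 10 reads in 5 of the 18 Pkd2 libraries, all 5 KO and 3 of them at P1. The filter thus favoured a higher KO value, and counts over the 4 are no evidence of a direction. All 4 were higher in KO (median log2 fold change 1.41), and with no filter 12 of 13 were (median 0.95, 2 at an unadjusted p under 0.05). miR-292a-3p was at 1.35, 0.878 and 0.800 CPM in KO and 0.299, 0.240 and 0.250 CPM in WT (1.93 ± 0.79). miR-294-3p was at 0.739, 0.570 and 0.414 CPM in KO and 0.0996, 0.0898 and 0.306 CPM in WT (1.74 ± 0.72, unadjusted p 0.0278). In 2 of the 3 WT libraries miR-294-3p had 3 reads. The cluster summed to 7.14, 4.78 and 3.12 CPM in KO and 2.46, 1.32 and 2.50 CPM in WT, KO library 1 highest. Its most abundant kept member, miR-295-3p, overlapped between the groups (1.09 ± 0.83). Without KO library 1, WT library 1 or WT library 2, 0 of the 4 had an unadjusted p under 0.05. In the Pkd1 line at P1 the kept members had a median of -0.74.

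The 4 miRNAs with the miR-181 seed were all lower in KO, by similar amounts. This family, known for its part in lymphocyte development, comes from 3 loci. miR-181a-5p was at 21514, 16661 and 16213 CPM in KO and 28373, 21842 and 18929 CPM in WT (-0.35 ± 0.17). miR-181c-5p, named after its values were seen, was at 4177, 2958 and 3145 CPM in KO and 5235, 4686 and 4121 CPM in WT (-0.45 ± 0.18, unadjusted p 0.0235). KO library 1 reached into the WT range for each of these. The family was picked on these values, so its counts are a description only. Its median was -0.34 and ran from -0.48 to -0.14 under the alternatives. At an unadjusted p under 0.05, 2 of 4 were lower, beside 1.88% of all miRNAs. That count became 0 with library totals alone and without KO library 2, KO library 3 or WT library 1, and 4 with DESeq2, without KO library 1 or with scaling factors computed without miR-10a-5p and miR-10b-5p. The leukocyte list, which could mark lymphocytes, had a median of -0.16, with 0 of 6 members at that p.

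Among 45 groups of at least 3 kept miRNAs whose hairpins lie within 10000 bases of the next, 3 held at least 2 miRNAs at an unadjusted p under 0.05 or at least 3 without overlap. These groups were picked on these values and are a description only. The hairpins of miR-188, miR-362, miR-500, miR-501 and miR-532 lie in introns of Clcn5, a chloride transporter gene of the kidney tubule (chrX:7237683-7248497, minus strand). Of their 10 kept miRNAs 9 were higher in KO, with a median of 0.30 and 2 at an unadjusted p under 0.05 (0 without KO library 2), and miR-532-5p, the most abundant, was lower (-0.15 ± 0.23). miR-501-5p led them, at 6.65, 11.2 and 8.99 CPM in KO and 4.08, 6.20 and 5.92 CPM in WT, with no overlap (0.72 ± 0.24, unadjusted p 0.00802). The sum over the 10 overlapped between the groups. Medians of the same 10 were 0.02 at P3, 0.12 at P7 and -0.03 in the Pkd1 line at P1.

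A second such group held 49 miRNAs of the repeated miR-297, miR-466, miR-467 and miR-669 hairpins on chromosome 2 (chr2:10466663-10517164, plus strand). Of these 40 were higher in KO, with a median of 0.13 and 0 at an unadjusted p under 0.05. Its members are near-identical copies between which reads can be split, so they are not separate observations. The last was the pair of miR-192 and miR-194-2 hairpins on chromosome 19 (chr19:6264643-6264932, plus strand), whose main products are described above.

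miR-31-3p, of injured epithelia, is described above. The miR-17/92 cluster, miR-21a and the miR-183 cluster, linked to cyst growth or to epithelial injury in kidney, had medians from -0.09 to 0.22. Of the 9 members of the miR-17/92 cluster, an oncogenic cluster that promotes proliferation, 1 was higher and 0 lower at an unadjusted p under 0.05, and the median was -0.06. That member, miR-18a-5p, was at 358, 862 and 518 CPM in KO and 339, 394 and 389.6 CPM in WT, overlapping, with KO library 2 high (0.63 ± 0.27). miR-17-5p (-0.07 ± 0.18) and miR-92a-3p (-0.06 ± 0.18) overlapped. miR-21a-5p, a miRNA of injury and fibrosis, was at 4832, 3882 and 3072 CPM in KO and 4796, 3931 and 4511 CPM in WT (-0.17 ± 0.24), and at P7 its log2 fold change was 1.11 (adjusted p 0.0147). The cluster of miR-183, miR-96 and miR-182, of sensory and other epithelia, had a median of 0.22 with 0 of 5 at that p. Its main member miR-182-5p was at 6262, 4675 and 3427 CPM in KO and 5656, 4639 and 4803 CPM in WT (-0.07 ± 0.32), whereas at P7 4 of the 5 were called higher.

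Within the miR-200 family, the epithelial miRNAs of the cells in which Cre was active, 0 of 5 had an unadjusted p under 0.05. miR-200b-3p was at -0.05 ± 0.16 and miR-200c-3p at 0.37 ± 0.22 on the log2 scale. Members at that p numbered 0 in the miR-30 family (median -0.17), let-7 with miR-98 (-0.02, 10 of 11 kept), and miR-10 and miR-196 (-0.12). The p53-linked list of miR-34 and miR-449 (-0.18), the miR-106b and miR-106a clusters (-0.08) and the miR-322 cluster (-0.11) also had 0. The same held for the mesenchymal (0.01), endothelial (-0.07), erythroid (-0.06), and neural and endocrine (0.27) lists, for the miR-29 family (0.28) and for the hypoxia miRNA miR-210 (0.35).

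miR-30a-5p, an abundant miRNA of kidney epithelium and the third in level, was at 38221, 34585 and 26017 CPM in KO and 42982, 42599.5 and 39226 CPM in WT. KO lay below WT in every library, although the log2 fold change of -0.34 ± 0.23 had an unadjusted p of 0.17. miR-143-3p, a miRNA of smooth muscle and stroma, had no overlap either, at 36181, 32402 and 32678 CPM and 42781, 36527 and 42135 CPM (-0.26 ± 0.33). Of the other most abundant miRNAs, miR-10a-5p (-0.22 ± 0.55), miR-10b-5p (-0.23 ± 0.63), miR-26a-5p (-0.10 ± 0.13) and miR-27b-3p (-0.01 ± 0.17) overlapped, and miR-30e-5p (-0.26 ± 0.32) did not. KO library 3 had the largest TMM factor of the P1 libraries (1.765, beside 1.152 to 1.333), and a larger factor gives lower scaled levels. Per read of the library total, KO and WT overlapped for miR-30a-5p, miR-143-3p and miR-30e-5p.

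The imprinted interval from Dlk1 to Dio3 on chromosome 12 (chr12:109452823-110281097), whose maternal allele expresses a large miRNA array in the fetus, contributed 89 kept miRNAs. At P1 50 were lower and 39 higher in KO (median -0.05), with 1 lower and 0 higher at an unadjusted p under 0.05. This split turned with single libraries. Without WT library 3, 81 of 88 were higher (median 0.47, 12 of them at that p), and without KO library 2 69 of 89 were (median 0.15). Without WT library 2, 72 of 88 were lower (median -0.27). With library totals alone 68 were higher (median 0.14). Its sum varied as much within a genotype as between them, at 16457, 7053 and 11574 CPM in KO and 10390.4, 8569 and 20540.5 CPM in WT. At P7 42 of the same 89 were called higher in KO.

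The muscle list owed its values to 1 library. All 6 kept members were higher in KO (median 1.11), and miR-133b-3p had the largest log2 fold change of all 746 miRNAs (2.44 ± 0.96, unadjusted p 0.0222). It was at 2.28, 2.63 and 30.8 CPM in KO and 2.12, 1.41 and 3.06 CPM in WT. Without KO library 3 its log2 fold change was 0.16 and the list median -0.21. miR-206-3p had 1.14, 0.746 and 8.80 CPM in KO and 0.133, 0.689 and 1.56 CPM in WT. For the 2 arms of miR-122, the median log2 fold change of -1.26 became 2.02 without WT library 3.

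**Figure D5:**
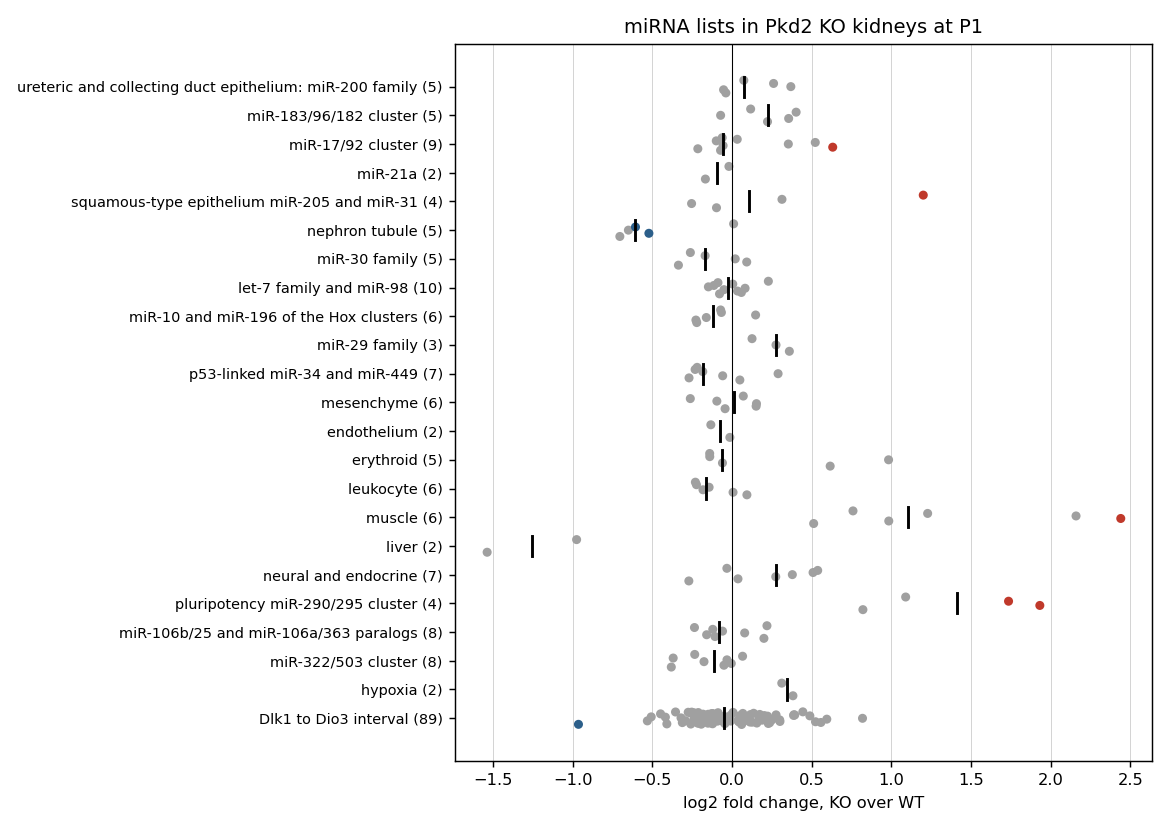
Each point is the log2 fold change of KO over WT at P1 of 1 miRNA in 1 of 23 lists (number kept in brackets), with black bars at list medians. Red and blue points had an unadjusted p under 0.05. Only the nephron tubule, liver, muscle and miR-290 cluster lists have medians farther than 0.5 from 0, and the liver and muscle medians turned when 1 library was left out.

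The 2 arms of a hairpin often differed in the miRNAs picked out above, but these were picked on the p of a single arm. Each hairpin with both arms kept supplies both a scarcer and a major arm. Of the 27 higher miRNAs, 18 came from a hairpin with both arms kept, and 13 of these were the scarcer arm. Of the 14 lower miRNAs, 9 did so and 3 were the scarcer arm. Over 277 hairpins the log2 ratio of scarcer to major arm was higher in KO for 168 (median change 0.11), but at P3 it was higher for 170 (median 0.08). At P7 it was higher for 169 (median 0.10), and in the Pkd1 line at P1 for 161 (median 0.12). When miRNAs were divided into 5 classes of equal size by their level at P3 and P7, the median log2 fold change at P1 was 0.10 in the scarcest class and -0.07 in the most abundant.

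KO differences at P1 were set beside those at later ages, whose control libraries were different ones. Of the 41 miRNAs, 27 had the same sign at P3 and 26 at P7, while over all 746 miRNAs 59.2% and 57.2% did. None of the 41 had an unadjusted p under 0.05 with the same sign at P3, where 11 of 746 (1.47%) had such a p in either direction. At P7 8 of the 41 (19.5%) were called at an adjusted p under 0.05, beside 12.6% of all miRNAs, 6 of them (14.6%) with the same sign and 2 with the opposite sign. Those of the same sign comprised miR-31-3p (P7 log2 fold change 2.03) and miR-193a-3p (0.94), which were higher, and miR-653-5p (-1.13), miR-194-5p, miR-802-5p and miR-181c-5p (-0.68), which were lower. The 2 of opposite sign were miR-3084-5p and miR-1193-5p, the latter at -0.96 at P1 and 2.47 at P7. In the other direction, 67 miRNAs called higher at P7 had a median of 0.05 at P1, with 38 higher, and the 27 called lower had a median of -0.12, with 19 lower.

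The KO effect differed between P1 and P7 for 4 miRNAs at an adjusted p under 0.05 (0.536% of 746) by edgeR's quasi-likelihood test, and 126 (16.9%) had an unadjusted p under 0.05. miR-31-5p, at a log2 fold change of 0.31 at P1 and 2.37 at P7, differed by -2.06 ± 0.44 (adjusted p 0.0426). miR-540-3p and miR-299a-3p, of the Dlk1 to Dio3 interval, had -0.15 and -0.31 at P1 but 1.86 and 1.31 at P7 (adjusted p 0.0219 and 0.0278). miR-3084-5p was higher in KO at P1 and lower at P7 (-1.30), a fitted difference of 2.94 ± 0.52 (adjusted p 0.0219) that rests on a few reads per library at P1. Without KO library 2 or without WT library 3, 0 of 746 passed this test. With KO library 1 left out 8 passed, and with KO library 3 left out 2 did. Between P1 and P3 0 miRNAs passed by the same test, and 11 (1.47%) had an unadjusted p under 0.05, while DESeq2, limma-voom and the likelihood ratio test gave 0 as well.

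The Pkd1 line at P1 gave 0 miRNAs at an adjusted p under 0.05 and 59 of 706 (8.36%) at an unadjusted p under 0.05. Of the 41 Pkd2 miRNAs 38 were tested there, and 24 had the same sign, beside 55.5% of all miRNAs. The difference between the KO effects of Pkd2 and Pkd1 at P1 passed for 0 of 775 miRNAs by edgeR's quasi-likelihood test, with 49 (6.32%) at an unadjusted p under 0.05. limma-voom also gave 0, but the likelihood ratio test gave 6 and DESeq2 8, and leaving out KO library 1 or KO library 2 gave 3. The smallest p-values were those of miR-206-3p and miR-133b-3p, both of the muscle list, and of miR-202-5p, which was not kept in the Pkd2 line. miR-133b-3p was high in Pkd2 KO library 3 and also in WT library 1 of the Pkd1 line at P1. Its Pkd1 values at P1 were 3.57, 1.30 and 1.52 CPM in KO and 167, 3.72 and 1.34 CPM in WT. The muscle list had a median of -4.34 in the Pkd1 line at P1, beside 1.11 in the Pkd2 line.

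WT kidneys of the Pkd1 line, which share no library with this comparison, gave an age axis. Of 73 miRNAs that rose from P1 to P7 there, 39 were lower and 34 higher in Pkd2 KO at P1 (median -0.01), and 5 were lower at an unadjusted p under 0.05 against 3 higher. Of 78 that fell with age, 50 were higher and 28 lower (median 0.09), with 3 higher and 0 lower at that p. Over all 746 miRNAs 403 were higher and 343 lower in KO, with 3.62% higher and 1.88% lower at that p. Across 695 miRNAs Pearson's r between the age change and the KO effect was -0.19 and Spearman's rho -0.10, given as a description, since miRNAs of 1 library share its depth and composition. miR-194-5p and miR-653-5p, both lower in KO, rose with age in those WT kidneys (log2 fold changes 1.43 and 1.11).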

How the data were processed

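Per the labels and the study's methods, the authors trimmed adaptors and, for reads of over 17 bases, obtained counts with miRDeep2 (version not given in the sources used here) against miRBase release 21 and mouse build mm10. They deposited raw read counts, with 1 row per mature miRNA and precursor. For a miRNA on several precursors (57 of those kept) the row with the highest total over 36 libraries was used, so its reads cannot be assigned to 1 locus. The filter required 10 counts or more in 3 or more of the 18 Pkd2 libraries.

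Counts were tested with the quasi-likelihood F-test of edgeR 4.0.16 (R 4.3.3) on TMM factors, with all 18 Pkd2 libraries in 1 fit, 1 term per group and Benjamini-Hochberg adjustment over all miRNAs. Differences between ages were contrasts of that fit, those between lines contrasts of a fit of 36 libraries. Pkd1 values came from a fit of the Pkd1 libraries. Every p printed for a miRNA is two-sided. The scripts were checked on simulated counts. Hairpins were placed by name for 715 miRNAs, from RefSeq or GENCODE release M21 (GRCm38). DESeq2 1.42.0 and limma-voom 3.58.1 were alternatives.

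Named miRNAs were those called at an adjusted p, up to 12 per direction by p without overlap and with a mean of at least 10 counts, up to 10 per direction at 2-fold, their other arms, the 8 most abundant, 3 of each list, and 3 per difference test. Others were chosen after their values were seen. The comparison, members and lists were chosen with earlier results of these data known.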

Additional observations from a re-analysis of the deposited data

Results flagged for a closer look

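Some miRNAs were singled out because their KO effect at P1 differed from that in another comparison. By edgeR's quasi-likelihood test with adjustment over 746 miRNAs, the log2 fold change at P1 minus that at P7 passed for miR-3084-5p (2.94), miR-540-3p (-2.01), miR-299a-3p (-1.62) and miR-31-5p (-2.06). The last 3 had P1 log2 fold changes of -0.15, -0.31 and 0.31, so most of each difference lay in the P7 value.

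In other cases every KO library lay on one side of the WT libraries at P1 and on the opposite side elsewhere. That pattern, as opposed to the contrast of the fits, was itself not tested. miR-3084-5p differed so from P7 (2.94) and from P3 (2.16), each WT library at P1 holding 3 reads. miR-1193-5p, lower at P1, was higher in every KO library at P7, a difference of -3.44 (adjusted p 0.0616 as a contrast). miR-501-5p differed from P3 by 0.91 (adjusted p 0.998).

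Against the Pkd1 line at P1, miR-292a-3p differed by 2.94, miR-143-3p by -0.83 and miR-192-5p by -1.21, each as the difference of 2 separately fitted log2 fold changes. In the joint fit of 36 libraries the adjusted p-values of these differences were 0.685, 0.79 and 0.661, so that 0 of the 3 passed by edgeR's quasi-likelihood test. In the Pkd2 line miR-292a-3p passed the filter through KO libraries alone, which favoured a higher KO value. The 2 lines are different crosses, and a difference of libraries or colonies cannot be told apart from one of the deleted gene.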

How the results depend on the processing

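The number of miRNAs at an adjusted p under 0.05 at P1, and of those whose KO effect differed between P1 and P3, was 0 under all alternatives. The 41 at an unadjusted p under 0.05 became 19 with library totals alone, 26 without KO library 3 and WT library 3 (chosen after seeing the data), and 17 to 59 when 1 library was left out. The 10 at 2-fold became 20 with no filter on low counts and 5 to 19 without 1 library. The 101 without overlap became 144 to 253 without 1 library and 280 without the 2 named above, which follows from fewer samples. The 4 differences from P7 became 33 with DESeq2, 21 with the likelihood ratio test, 0 with library totals alone, 2 with 10 counts required in 3 P1 libraries and 0 to 8 without 1 library. The 0 differences from Pkd1 became 8 with DESeq2, 6 with the likelihood ratio test, 4 with relative log expression factors, 4 with TMM factors computed without miR-10a-5p and miR-10b-5p, 5 with no filter and 0 to 3 without 1 library. The difference of -1.74 points in the miR-10 share ran from -5.24 to 1.83 without 1 library and turned to 1.83 without KO library 3. The cause of the other moves was not tested. Of 26 named calls, 12 kept an unadjusted p under 0.05 with library totals and 14 to 20 without 1 library, and 0 changed sign.

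The labels number the libraries 1 to 3 in both groups without saying what a number shares. At P1 the deviations of same-numbered libraries from their group means correlated at -0.03, 0.32 and 0.11. There 2 of 3 libraries correlated best with their own number, whereas at P3 and P7 no library did so. The numbers were not taken as pairs because the labels do not say that they mark a litter or batch. With the replicate block, 26 miRNAs had an unadjusted p under 0.05, 8 of them at 2-fold, the differences from P7 numbered 0 and those from Pkd1 2.

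Low counts limit the scarce miRNAs most: of the 41, 15 had a mean under 50 counts and 3 under 10, near the floor of 3 reads.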
